A study of Arabidopsis thaliana with 12 samples.

Results

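The root of the Arabidopsis thaliana mutant hni9 was examined here for its response to nitrogen, as the difference between roots at low and at high nitrogen. The comparison took 6 of the 12 Affymetrix arrays of the study, which were the 3 hni9 arrays at low nitrogen and the 3 hni9 arrays at high nitrogen, and all 22746 probe sets other than controls. The other 6 arrays are wild-type (WT) roots, 3 at low and 3 at high nitrogen, and the fit estimated the spread from all 12. Low nitrogen was 0.3 mM KNO3 and high nitrogen was 10 mM NH4NO3, both held at steady state, so form and amount of nitrogen changed together and their effects cannot be told apart. All 4 groups share the basal medium, and the labels state biological replication but give no age of the plants. Titles of the hni9 arrays give replicate 1 as hni9-1, replicate 2 as hni9-2 and replicate 3 as plain hni9. The labels do not say if this number marks an allele or only a replicate, so the spread within a group may hold both.

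HNI9, also named IWS1, is a protein that travels with RNA polymerase II and takes part in transcript elongation. Mutants were found in a screen for roots that keep a nitrate transporter gene active when nitrogen is plentiful, a condition that represses it in WT. Roots short of nitrogen are known to raise uptake systems, to recycle nitrogen from proteins and purines, and to shift carbon use. No probe set carried the name of HNI9 in the annotation used, so the targeted gene was not analysed here and the genotype labels could not be checked against it.

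The arrays were alike in overall signal. The median intensity lay between 199 and 216 on the low nitrogen hni9 arrays and between 210 and 221 on the high nitrogen hni9 arrays. The ratio of 3′ to 5′ signal of the GAPDH control, a sign of RNA integrity, was 0.976 to 1.27 at low nitrogen and 1.03 to 1.25 at high nitrogen in hni9. In WT the ratio was 0.921 to 1.19 at low nitrogen and 1.31 to 1.35 at high nitrogen, without overlap. Its part in the WT response and in the differences from WT was not tested. Between 11.5% and 14.97% of the values of an hni9 array were below 16, the constant added before logarithms were taken, so changes of dim genes are compressed. In whole roots, fewer cells of a type and less RNA per cell cannot be told apart. Of 15 listed genes of green tissue 1 was measured, RCA, which activates Rubisco. It read 1180, 290 and 238 at low nitrogen, against 144, 584 and 274 at high nitrogen, and its log2 change of 0.58 did not pass (limma, adjusted p = 0.644). The high reading of replicate 1 at low nitrogen stood apart from the others, and its part in other results was not tested. The root hair expansins EXPA7 and EXPA18, 2 of 8 listed root hair genes, changed by -0.12 and 0.05 on the log2 scale and did not pass. Markers of the endodermis, stele and root cap had 0 members each measured under a gene name. The annotation gave no gene to 8730 of the 22746 probe sets tested. A listed gene counted here as not measured may thus have been tested without a name.

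At a false discovery rate of 0.05, hni9 roots changed 1160 probe sets with nitrogen, which is 5.1% of those tested (limma with Benjamini-Hochberg adjustment). Of these, 678 were higher and 482 lower at low nitrogen, and 398 changed at least 2-fold. The median change over all probe sets was -0.05 on the log2 scale. With each array centred on its median the split became 779 higher and 359 lower. Leaving out replicate 1 at low nitrogen left 734 calls, the fewest of the fits that left out 1 array. With only hni9 arrays in the fit 439 were called, and with replicates 1 and 2 alone 362. The 3 low nitrogen arrays did not overlap with the 3 high nitrogen arrays for 1148 of the 1160 called probe sets, whereas 19.6% of all probe sets had arrays that did not overlap. A gene name was available for 13286 genes, of which 2.39% were called higher and 1.71% lower in hni9. These shares are the background for the list counts below. Of the 1160 called probe sets 548 carried a gene name matched to a locus. The rest could not be named, ranked or counted in a list, so the genes below cover only part of the calls. Changes below are log2 differences of low minus high nitrogen ± the standard error of the fit, with 3 arrays per group. Readings are intensities in the order of replicates 1, 2 and 3.

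The gene that rose most in hni9 by the naming rule was AT4G32950, which encodes a phosphatase of the PP2C type. It read 1626, 3147 and 1853 at low nitrogen, against 163, 174 and 142 at high nitrogen. All low nitrogen arrays lay far above all high nitrogen arrays, and the change was 3.61 ± 0.23 (limma, adjusted p = 9.4e-07). AT2G40250, a lipase-like hydrolase of the GDSL family, read 412, 256 and 490 at low nitrogen, against 127, 26.6 and 20.6 at high nitrogen. Its groups did not overlap, although replicate 1 at high nitrogen was several times brighter than the other two, and it changed by 2.68 ± 0.46 (limma, adjusted p = 0.00296). Another member of that family, AT2G19060, rose by 1.48 ± 0.26.

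GAMMA-VPE, a protease that processes proteins in the vacuole, read 4935, 6107 and 4393 at low nitrogen, against 1875, 1925 and 1542 at high nitrogen. The groups were well separated and the change was 1.52 ± 0.12 (limma, adjusted p = 7.2e-06). The aspartyl protease AT5G48430 read 1174, 823 and 897 at low nitrogen, against 237, 437 and 225 at high nitrogen, and rose by 1.68 ± 0.20. The carboxypeptidase-like gene scpl31 rose by 1.54 ± 0.29, with replicate 2 the lowest array of each supply. The wall-remodelling enzyme gene XTH21 read 360, 232 and 277 at low nitrogen, against 87.0, 46.3 and 140 at high nitrogen, a change of 1.59 ± 0.30. Other rises were those of AT4G04990 (1.87 ± 0.25), of AT5G37990, a methyltransferase of the SABATH family (1.49 ± 0.24), of AT3G18560 (1.47 ± 0.11) and of AT5G40590, which holds zinc-binding DC1 domains (1.46 ± 0.18). AT3G02910, related to gamma-glutamyl cyclotransferases, rose by 1.43 ± 0.11 and the RING protein gene AT2G42350 by 1.42 ± 0.14.

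The deepest fall by the rule was that of GH3.3, which joins auxin to amino acids and is itself induced by auxin. GH3.3 read 202, 104 and 157 at low nitrogen, against 1746, 505 and 1803 at high nitrogen. Replicate 2 at high nitrogen was far below the other two but above every low nitrogen array, and the change was -2.84 ± 0.38 (limma, adjusted p = 0.000373). GAT1_2.1, a glutamine amidotransferase-like gene of roots, read 22.1, 11.7 and 7.69 at low nitrogen, against 60.1, 269 and 383 at high nitrogen. Every low nitrogen array lay below the high nitrogen arrays, 2 of them under the added value of 16, and the change was -2.81 ± 0.47 (limma, adjusted p = 0.00263), or -1.77 with 64 added in place of 16. A second probe set of GAT1_2.1 changed by -1.54 ± 0.39.

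The plant defensin PDF2.1 read 764, 483 and 584 at low nitrogen, against 5264, 2632 and 4517 at high nitrogen. The groups lay far apart and the change was -2.69 ± 0.23 (limma, adjusted p = 9.5e-06). The class III peroxidase AT1G49570, of a family of secreted haem enzymes, read 269, 211 and 207 at low nitrogen, against 1210, 1740 and 1597 at high nitrogen, a change of -2.64 ± 0.15 (limma, adjusted p = 2.8e-07). A second peroxidase, AT5G64110, read 69.4, 86.2 and 75.4 at low nitrogen, against 412, 566 and 431 at high nitrogen, and fell by 2.37 on the log2 scale. In both peroxidase genes the replicates of a supply lay close together. The pectate lyase-like gene AT3G27400 read 240, 73.8 and 191 at low nitrogen, against 1051, 978 and 963 at high nitrogen, and its change was -2.59 ± 0.27. AT5G44400, a berberine bridge enzyme-like oxidase, read 456, 433 and 416 at low nitrogen, against 2267, 1910 and 2543 at high nitrogen, and its change was -2.31 ± 0.11. AT4G12490, a lipid transfer-like protein gene, changed by -2.18 ± 0.30, with replicate 2 the lowest array of each supply.

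The remaining falls by the rule were mixed in kind. The A/B barrel protein gene AT5G22580 changed by -2.36 ± 0.26, the DnaJ-domain gene AT1G56300 by -2.34 ± 0.19 and the TIR-domain gene AT1G72900 by -2.31 ± 0.45. AT1G11210 changed by -2.09 ± 0.38 and AT5G52790 by -2.06 ± 0.31. The malate transporter-like gene AT4G00910 read 80.2, 103 and 22.6 at low nitrogen, against 290, 437 and 223 at high nitrogen, a change of -2.08 ± 0.40. The glycosyltransferase gene AT5G53990 read 91.6, 114 and 14.97 at low nitrogen, against 276, 237 and 315 at high nitrogen, a change of -1.94 ± 0.39. Replicate 3 was much the dimmest of the low nitrogen arrays for both of these genes. With replicates 1 and 2 alone the change of AT5G53990 was -1.20.

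**Figure D1:**
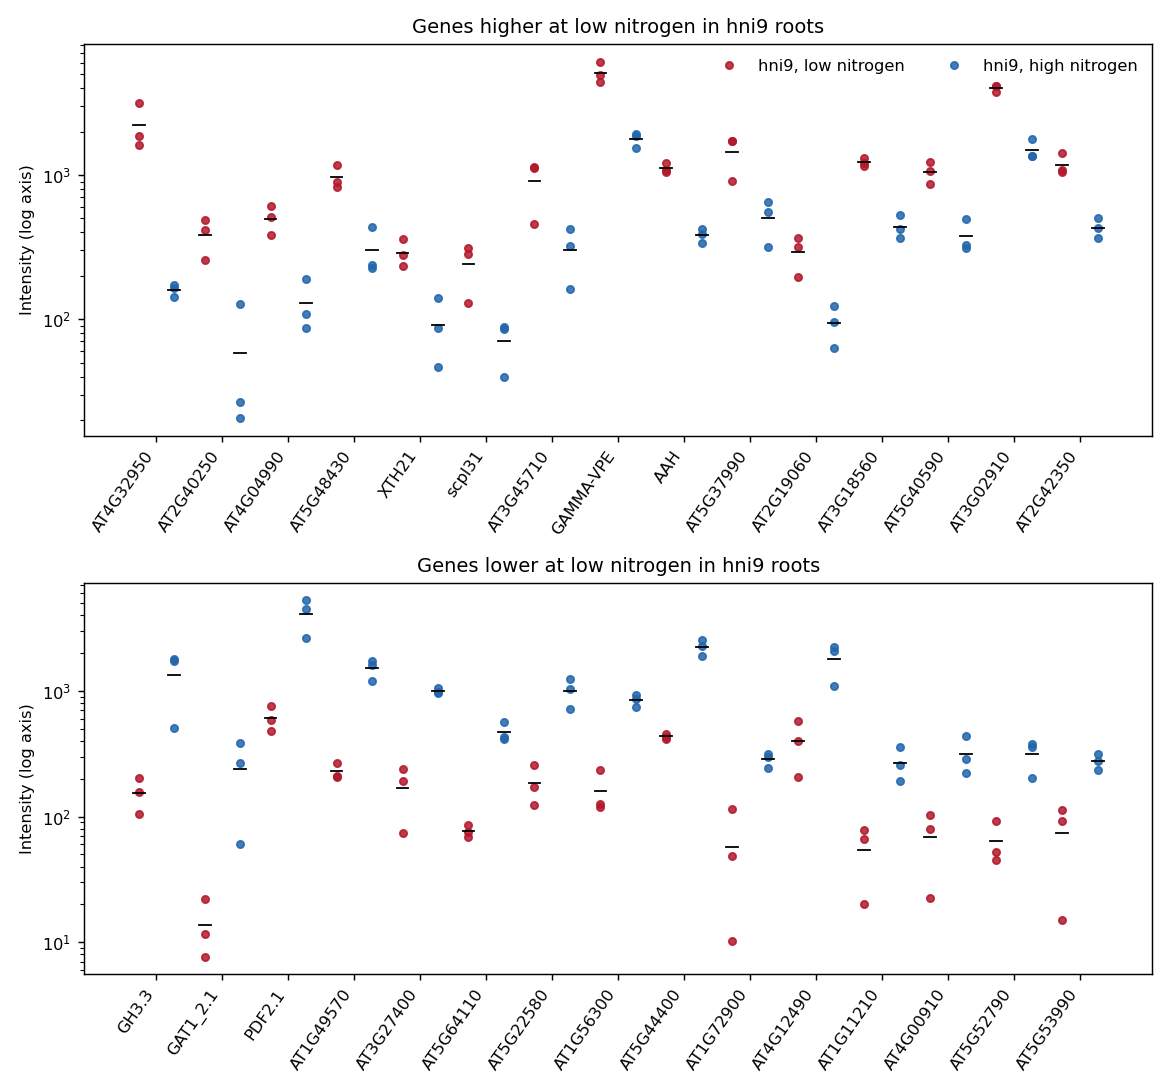
Intensity (log axis) of each hni9 array, as points, with a bar at the group mean, for the 15 genes with the largest rise (top) and the 15 with the largest fall (bottom) by the naming rule. The low nitrogen arrays stand left of the high nitrogen arrays, and the groups do not overlap because the rule required it; AT4G32950 at 1626 to 3147 against 142 to 174 is the widest gap of the top panel.

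Genes that sense or signal nitrogen were sparsely named in the annotation. Of 19 listed regulators 5 were measured, 2 higher and 1 lower, with a median change of 0.38 beside -0.05 over all probe sets. AT1G25550, the repressor HHO3, read 684, 528 and 626 at low nitrogen, against 906, 857 and 1081 at high nitrogen, and its change was -0.62 ± 0.12 (limma, adjusted p = 0.00833). The arrays did not overlap. AT3G25790, the related repressor HHO1, read 460, 423 and 474 at low nitrogen, against 231, 139 and 393 at high nitrogen, a change of 0.90 ± 0.25. The glutaredoxin-like signal AT1G06830, which in Arabidopsis passes word of nitrogen demand between shoot and root, read 237, 309 and 248 at low nitrogen, against 124, 123 and 72.9 at high nitrogen, a change of 1.22 ± 0.31. AT1G06830 lost its call without any 1 of the 6 hni9 arrays (adjusted p = 0.0527 to 0.137). AT3G25790 lost it without any but replicate 3 at high nitrogen (0.0759 to 0.129), and its change was 0.56 without replicate 2 at high nitrogen. The list held 2 calls without replicate 3 at high nitrogen and 1 without any other hni9 array.

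Few enzymes and carriers of nitrate and ammonium themselves could be found under a gene name. The others may have probe sets that were tested without a name. Of 19 genes of nitrate and ammonium assimilation and 7 of ammonium and urea transport, 0 were measured under a gene name. Of 15 nitrate transport genes 1 was measured under a gene name, NRT2.5, a high-affinity carrier known from starved roots. NRT2.5 read 92.1, 92.0 and 73.0 at low nitrogen, against 102, 15.1 and 68.8 at high nitrogen, and its change of 0.58 did not pass (limma, adjusted p = 0.636).

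In the NPF family, carriers of nitrate, peptides and other solutes, 34 genes were measured. Of these 3 were higher and 1 lower (11.8% called), with a median change of -0.19. This family was listed by locus after values were known, and a name-matched version written at the start held 11 measured genes, 0 higher and 1 lower. AT1G59740 read 129, 201 and 175 at low nitrogen, against 380, 335 and 386 at high nitrogen, and its change was -1.07 ± 0.18. AT3G01350 read 464, 517 and 425 at low nitrogen, against 311, 242 and 257 at high nitrogen, and rose by 0.77 ± 0.15. Neither gene's groups overlapped. AT3G45710, known as NPF2.5, read 1120, 455 and 1135 at low nitrogen, against 321, 162 and 421 at high nitrogen, a change of 1.52 ± 0.34, with replicate 2 the lowest of both supplies. Its call was lost without replicate 2 at high nitrogen (adjusted p = 0.0606), replicate 1 at low nitrogen (0.082) or replicate 3 at low nitrogen (0.0767). AT5G14940 rose by 0.58 ± 0.15 and lost its call without replicates 1 or 3 of either supply (0.104 to 0.139). Without replicate 1 or replicate 3 at low nitrogen the family had 2 calls.

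Enzymes that release nitrogen from stored compounds rose where they passed. Of 4 measured genes of purine and ureide breakdown 2 were higher and 0 lower, with a median change of 0.30. AAH, which frees ammonium from allantoate, read 1052, 1212 and 1085 at low nitrogen, against 422, 336 and 392 at high nitrogen. The groups lay well apart and AAH rose by 1.51 ± 0.12 (limma, adjusted p = 6.5e-06). ALN, the allantoinase one step before it, read 568, 560 and 576 at low nitrogen, against 308, 468 and 387 at high nitrogen, a change of 0.55 ± 0.13. ALN lost its call without any hni9 array but replicate 2 at high nitrogen (adjusted p = 0.0525 to 0.106), which left 1 call in the list. Of 3 measured vacuolar and senescence proteases 1 was higher, GAMMA-VPE.

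Among 11 measured autophagy genes 2 were higher and 0 lower (18.2% called), with a median change of 0.11. APG8A, a ubiquitin-like protein of the autophagosome membrane, rose by 0.56 ± 0.12, and the call was lost without replicate 1 at low nitrogen (adjusted p = 0.0677) or replicate 3 at high nitrogen (0.0658). APG8H, of the same family, changed by 0.32 ± 0.09 and lost its call without any hni9 array but replicate 3 at low nitrogen (0.0757 to 0.19). The list thus held 0 calls without replicate 1 at low nitrogen or replicate 3 at high nitrogen, and 1 without replicate 1 or 2 at high nitrogen or replicate 2 at low nitrogen.

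Reductant, sulfur and sugar genes mostly rose where they passed. Of 3 measured genes of the pentose phosphate pathway, which feeds reducing power to nitrate reduction in roots, 2 were higher. AT1G64190, a 6-phosphogluconate dehydrogenase, read 7947, 8802 and 9692 at low nitrogen, against 6491, 5566 and 6302 at high nitrogen, and rose by 0.52 ± 0.10. Its paralog AT5G41670 rose by 0.63 ± 0.14. In sulfate uptake and assimilation, a list written after values were known, 2 of 3 measured genes were higher. APS4, an ATP sulfurylase that activates sulfate, read 6354, 7165 and 7336 at low nitrogen, against 2090, 3396 and 2567 at high nitrogen, with no overlap, and rose by 1.39 ± 0.14 (limma, adjusted p = 4.9e-05). APS3, of the same family, changed by 0.53 ± 0.12 and lost its call without replicate 2 or 3 at high nitrogen or replicate 1 or 2 at low nitrogen (0.0534 to 0.0863).

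Of 4 measured genes of glucosinolate synthesis, which makes defence compounds rich in nitrogen and sulfur, 2 were higher and 0 lower, with a median change of 0.75. BCAT4, which starts the chain elongation of methionine, read 4321, 4819 and 4257 at low nitrogen, against 2075, 1487 and 2201 at high nitrogen, and rose by 1.23 ± 0.15. AT2G31790, a glucosyltransferase of that pathway, read 1493, 1312 and 1179 at low nitrogen, against 520, 442 and 549 at high nitrogen, and rose by 1.37 ± 0.11. Neither gene had overlapping groups. The list was written after values of these data were known.

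Sugar carriers of the SWEET and sucrose transporter list had 17 measured genes, 4 higher and 1 lower. SWEET17, a fructose carrier of the vacuole, read 1152, 995 and 1132 at low nitrogen, against 696, 673 and 679 at high nitrogen, and rose by 0.66 ± 0.10. SWEET13, a sucrose carrier, read 325, 407 and 458 at low nitrogen, against 187, 140 and 210 at high nitrogen, and rose by 1.09 ± 0.18. The groups of both genes were apart, and SWEET2, a vacuolar carrier of roots, rose by 0.80 ± 0.15. AtVEX1 read 25.4, 6.66 and 7.55 at low nitrogen, against 73.8, 45.5 and 121 at high nitrogen, a change of -1.70 ± 0.42. Since 2 of its low nitrogen readings were under 16, the change of AtVEX1 was -2.65 with 1 added and -0.87 with 64 added, and it lost its call without replicate 1 or 3 at high nitrogen or replicate 2 or 3 at low nitrogen (adjusted p = 0.0805 to 0.124). Without replicate 2 or 3 at low nitrogen, or replicate 3 at high nitrogen, 3 members were called.

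**Figure D2:**
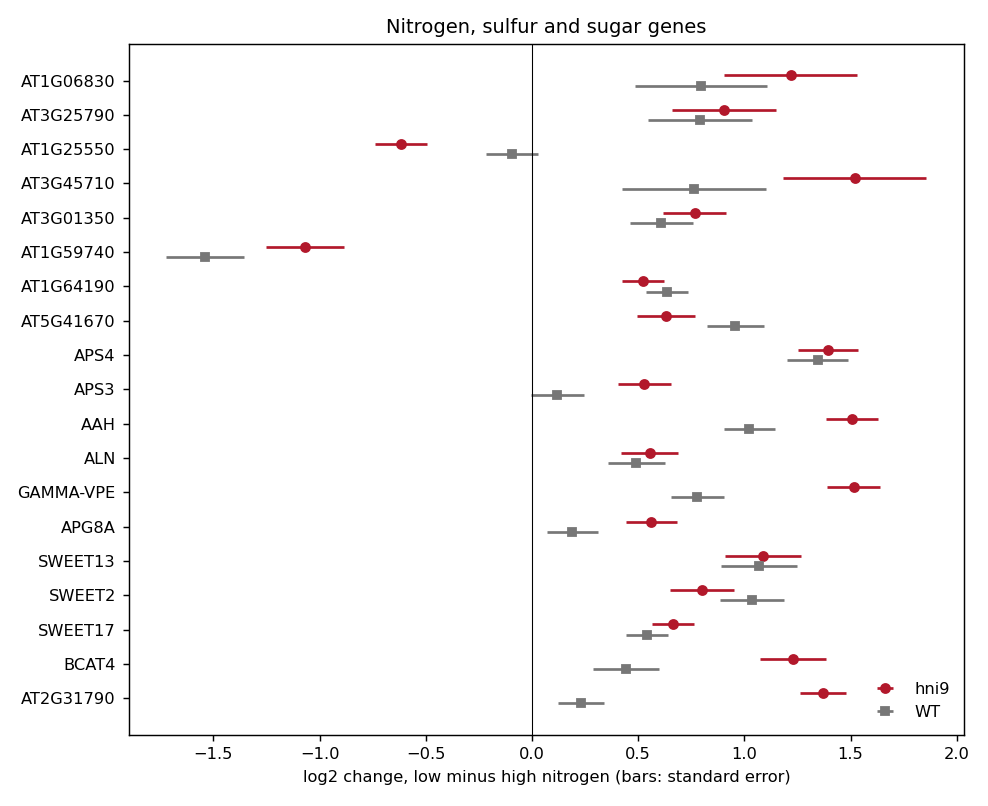
Log2 change of low minus high nitrogen for 19 named genes of nitrogen signalling, transport, nitrogen release, sulfur and sugar metabolism, with standard errors as bars, in hni9 (circles) and WT (squares). In hni9 the range runs from -1.07 for AT1G59740 to 1.52 for AT3G45710.

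Of the lists examined the class III peroxidases, a long list, held the most falls by number. The shorter pectate lyase-like list held 5 falls among 23 measured genes. Of 55 measured class III peroxidases 13 were lower and 4 higher in hni9 (30.9% called), with a median change of -0.22. Besides the pair described above, AT5G64120 read 1582, 1437 and 1772 at low nitrogen, against 3459, 6471 and 3006 at high nitrogen, and its change was -1.35 ± 0.21. AT2G35380 went the other way, with 930, 669 and 806 at low nitrogen, against 442, 356 and 440 at high nitrogen, a change of 0.93 ± 0.14. Prx37 changed by -0.73 ± 0.17, and its call was lost without replicate 1 at high nitrogen (adjusted p = 0.0884), replicate 3 at high nitrogen (0.0879) or replicate 3 at low nitrogen (0.0852). Without replicate 1 at high nitrogen or replicate 3 at low nitrogen the family held 10 calls. The family was listed by locus after values were known, and a name-matched version written at the start held 7 measured genes, 0 higher and 2 lower.

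Other wall enzymes were mixed. Of 23 measured pectate lyase-like genes, which cut pectin and were listed after values were known, 5 were lower and 0 higher, with a median change of -0.33, and 3 were called without replicate 1 at high nitrogen or replicate 2 at low nitrogen. AT4G24780 read 4980, 4300 and 5014 at low nitrogen, against 7097, 7643 and 6602 at high nitrogen, a change of -0.58 ± 0.11. AT1G04680 changed by -0.56 ± 0.11. AT3G53190 changed by -0.72 ± 0.16 and lost its call without replicate 1 at high nitrogen (adjusted p = 0.0528), replicate 1 at low nitrogen (0.0703) or replicate 2 at low nitrogen (0.0594). Of 19 measured expansins, which loosen walls, 1 was lower (5.26% called), EXPA4, at -0.52 ± 0.08. Without replicate 2 at low nitrogen 3 expansins were called. Of 10 xyloglucan endotransglucosylases 2 were higher, XTH21 and XTH16, the second at 0.90 ± 0.18.

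Of 22 measured berberine bridge enzyme-like genes, secreted oxidases also listed after values were known, 2 were higher and 2 lower (18.2% called). AT4G20860 rose by 0.75 ± 0.10, and AT1G30760 changed by -1.04 ± 0.15. AT2G34810 read 174, 136 and 139 at low nitrogen, against 60.8, 20.1 and 7.92 at high nitrogen, a change of 2.03 ± 0.36, or 1.23 with 64 added. Among 14 measured defensins and thionins 2 were lower (14.3% called), PDF2.1 and LCR69. LCR69 changed by -0.71 ± 0.17, by -0.46 without replicate 2 at low nitrogen, and lost its call without replicate 1 (adjusted p = 0.0905) or replicate 3 (0.0553) at high nitrogen, which left 1 call.

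Among enzymes of specialised metabolism and detoxification, 9.80% of glycosyltransferases, 3.57% of cytochrome P450 genes and 8.33% of glutathione transferases were called. Over all named genes 2.39% were called higher and 1.71% lower. Of 51 measured nucleotide sugar glycosyltransferases 3 were higher and 2 lower. UGT71C1, which glucosylates phenolic compounds, read 1396, 1304 and 1288 at low nitrogen, against 489, 564 and 517 at high nitrogen, and rose by 1.32 ± 0.10. UGT88A1 changed by -0.94 ± 0.16. UGT85A2 changed by -0.68 ± 0.16 and GT72B1 by 0.39 ± 0.09, and each lost its call in 4 of the 6 fits that left out an hni9 array (adjusted p = 0.0596 to 0.0917 for UGT85A2 and 0.0565 to 0.0838 for GT72B1). The list held 2 calls without replicate 2 at high nitrogen or replicate 3 at low nitrogen, and 3 without replicate 1 or replicate 2 at low nitrogen. Of 28 cytochrome P450 genes 1 was higher, CYP71B37, at 1.02 ± 0.14, and 2 were called without replicate 2 at low nitrogen or replicate 3 at high nitrogen. Of 12 glutathione transferases 1 was higher, GSTU22, at 1.06 ± 0.18. The count was 2 without replicate 2 at low nitrogen, 3 with the replicate block, 4 without the dimmest 40% of probe sets, and 0 with only hni9 arrays in the fit or with replicates 1 and 2 alone.

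Of 5 measured GH3 genes (40% called) 1 was lower, GH3.3, and 1 higher, GH3.17, at 0.45 ± 0.12. GH3.17 lost its call without replicate 1 or 2 at high nitrogen or replicate 1 or 3 at low nitrogen (adjusted p = 0.0711 to 0.138), which left 1 call. Of 7 measured auxin response genes of the Aux/IAA and SAUR list, 0 passed. Of 69 plastid-encoded genes 2 were lower (2.90% called, beside 2.39% higher and 1.71% lower over all named genes). They were rps19 at -0.42 ± 0.10 and rpl14 at -0.62 ± 0.17, beside a median of -0.10. Without replicate 1 or replicate 3 at high nitrogen 0 of these were called, and 1 was called without replicate 2 at high nitrogen or replicate 1 or 3 at low nitrogen, with adjusted p of 0.0528 to 0.099 for rps19 and 0.0891 to 0.179 for rpl14 where they lost it. Flavonoid synthesis (4 measured), glutaredoxins (5) and WRKY factors (7) had 0 calls.

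**Figure D3:**
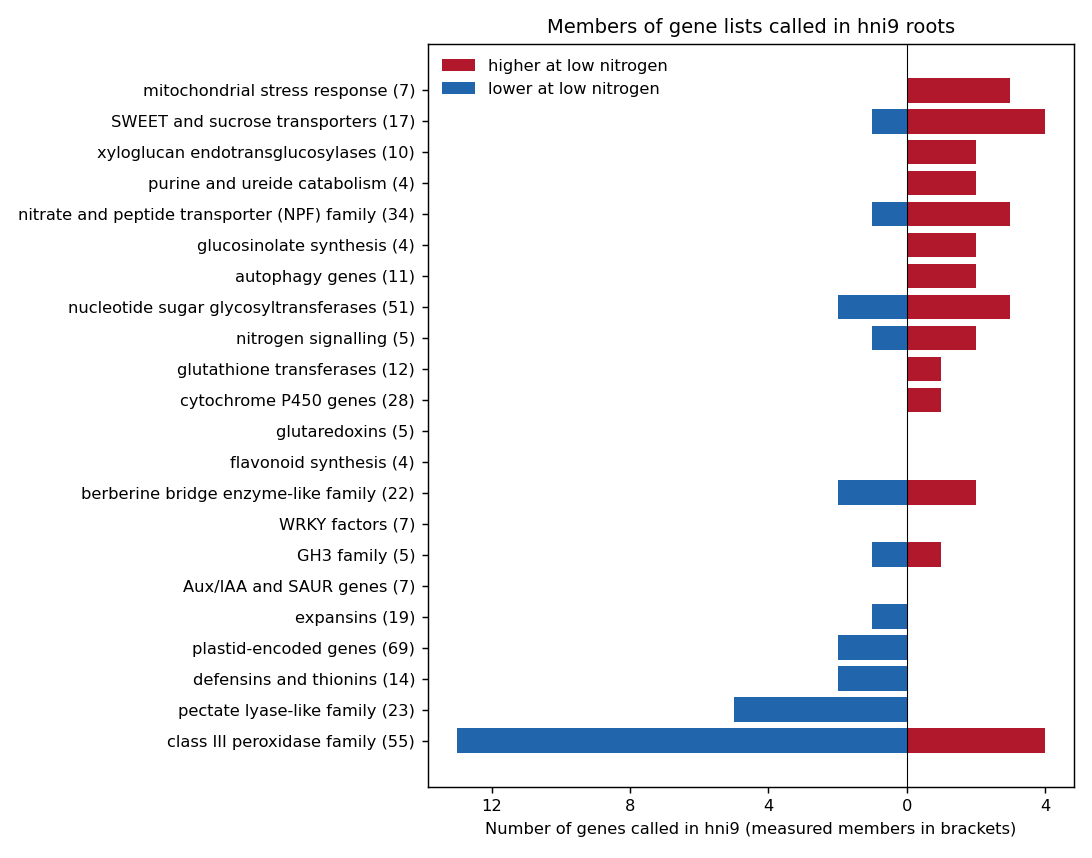
Number of genes called higher (right) and lower (left) at low nitrogen in hni9 roots, for gene lists with at least 4 measured members, whose number stands in brackets. The name-matched NPF and class III peroxidase lists written at the start are not drawn. The versions listed by locus after values were known stand in their place. The class III peroxidase family has the longest bar, with 13 lower and 4 higher of 55.

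The response that hni9 keeps was set beside that of WT. The WT means rest on other arrays, but both responses share 1 estimate of the spread per probe set. Calls in hni9 and WT are thus not independent, since a small shared spread favours a call in both. How far this adds to the overlap was not tested. WT changed 1305 probe sets, 5.74% of those tested. In both genotypes 453 probe sets were called in the same direction, 247 higher and 206 lower, which is 39.1% of the calls in hni9 and 34.7% of the calls in WT. Another 10 were called in opposite directions. Of the 1160 called in hni9, 983 or 84.7% had the same sign in WT. The share with the same sign over all probe sets was not computed, so this figure has no background beside it. Among those called higher in hni9 the median change was 0.76 in hni9 and 0.35 in WT, and among those called higher in WT it was 0.43 in hni9 and 0.72 in WT. Each set was chosen by the change in its own genotype, which makes that change the larger. Among the 453 the medians were 0.86 in hni9 and 0.83 in WT for the rises, and -0.89 in hni9 and -0.95 in WT for the falls. A call in hni9 without one in WT is not a difference between them: of 697 such probe sets the difference itself passed for 52.

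Of the 30 largest hni9 changes by the naming rule 19 were also called in WT, 11 of the 15 rises and 8 of the 15 falls. AT4G32950 changed by 3.61 in hni9 and 4.29 in WT, and the difference did not pass (limma, adjusted p = 0.467). PDF2.1 changed by -2.69 in hni9 and -2.90 in WT. APS4 changed by 1.39 in hni9 and 1.34 in WT, and scpl31 by 1.54 in hni9 and 1.51 in WT. The osmotin gene OSM34 read 3502, 4041 and 3497 in hni9 at low nitrogen, against 12006, 11061 and 11387 in hni9 at high nitrogen, and changed by -1.64 in hni9 and -1.45 in WT. The rule for kept genes required the low nitrogen arrays of each of these genes to stand clear of the high nitrogen arrays in both genotypes.

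Further genes kept in both were PGM, named as a phosphoglycerate mutase, at 1.24 in hni9 and 1.33 in WT, and AT1G49310, at 1.37 in hni9 and 1.28 in WT. AT1G73600, a methyltransferase of phosphocholine synthesis, read 840, 814 and 832 in hni9 at low nitrogen, against 392, 282 and 375 in hni9 at high nitrogen. In WT the same gene read 4297, 3898 and 3764 at low nitrogen, against 1257, 1122 and 1168 at high nitrogen. It rose in both, by 1.22 in hni9 and 1.74 in WT, and hni9 minus WT was -2.24 at low nitrogen and -1.72 at high nitrogen (limma, adjusted p = 8.0e-08 and 8.8e-07). AT1G64370 likewise fell in both, by 1.55 in hni9 and 2.89 in WT on the log2 scale, and read 321 to 457 in hni9 at high nitrogen, against 2655 to 2856 in WT at high nitrogen. The lectin gene AT3G16530 changed by -1.92 in hni9 and -2.23 in WT, and AT5G52390 by -1.83 in hni9 and -1.86 in WT.

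**Figure D4:**
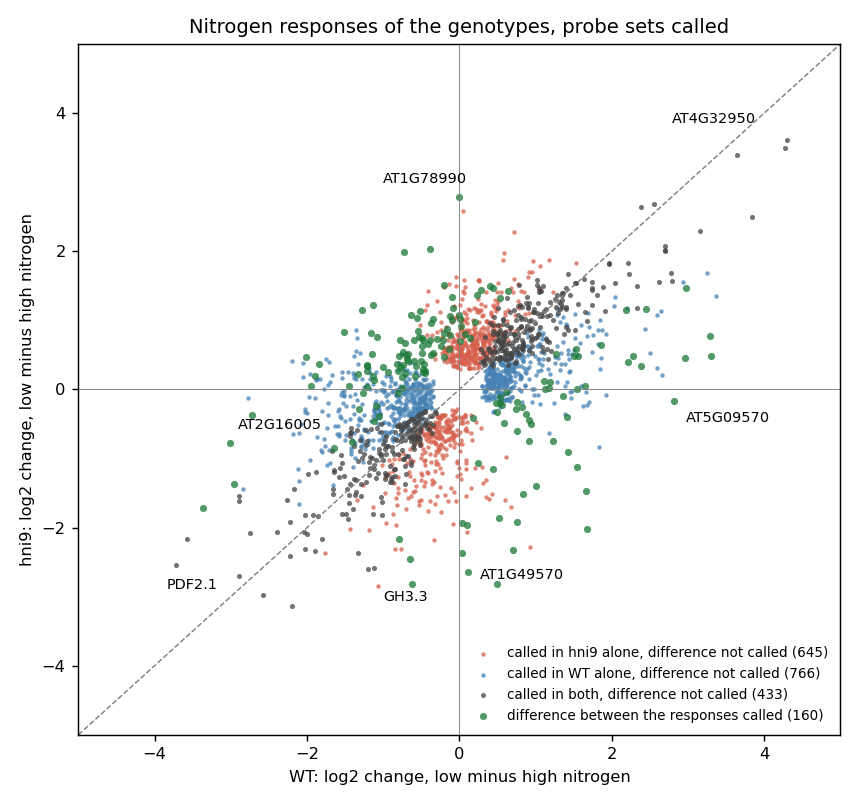
Log2 change of low minus high nitrogen in hni9 (vertical) against WT (horizontal), one point per probe set called in either genotype or in the difference; the dashed line marks equal change. The 433 called in both without a called difference lie where both changes have the same sign, and the 160 with a called difference lie away from the line.

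The difference between the responses, hni9 minus WT, passed for 160 probe sets, 0.703% of those tested, 101 positive and 59 negative (limma). This count moved with the settings and with single arrays. It was 21 without the intensity trend and 1 with replicates 1 and 2 alone. Leaving out WT replicate 1, 2 or 3 at low nitrogen gave 76, 67 or 81, and leaving out WT replicate 1, 2 or 3 at high nitrogen gave 77, 81 or 91. The count was 88 without hni9 replicate 1 at low nitrogen, 247 without hni9 replicate 2 at high nitrogen and 254 without hni9 replicate 2 at low nitrogen. Of the 101 positive differences 39 were called in hni9 alone, 46 in WT alone, 14 in both and 2 in neither. Of the 59 negative ones 13 were called in hni9 alone, 30 in WT alone and 16 in both.

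Several genes responded in hni9 more than in WT. The peroxidase AT1G49570, whose hni9 readings stand above, read 408, 446 and 367 in WT at low nitrogen, against 418, 348 and 360 in WT at high nitrogen. The WT groups overlapped, the hni9 groups did not, and the difference was -2.75 ± 0.21 (limma, adjusted p = 3.4e-05). AT5G64110 gave a difference of -2.40 ± 0.32. AT1G78990, an acyltransferase-like gene, read 193, 144 and 175 in hni9 at low nitrogen, against 4.23, 4.25 and 31.5 in hni9 at high nitrogen. In WT it read 324, 399 and 396 at low nitrogen, against 337, 425 and 358 at high nitrogen, so the low readings were those of hni9 at high nitrogen. The difference was 2.79 ± 0.43, or 1.61 with 64 added.

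AT2G31790 of glucosinolate synthesis differed by 1.14 ± 0.15, and AT1G64590, a short-chain dehydrogenase, rose in hni9 and fell in WT, a difference of 1.71 ± 0.19. AT3G57020, related to strictosidine synthase, differed by 1.59 ± 0.26 and the patatin-like gene AT5G43590 by -2.35 ± 0.39, the second with an adjusted p of 0.0518 without WT replicate 2 at low nitrogen. GAT1_2.1 differed by -3.30 ± 0.67, and its call was lost in 10 of the 12 fits that left out an array (0.0587 to 0.121). With 64 added its difference was -2.16 and did not pass (0.077). AT2G34810 differed by 2.42 ± 0.52, with the call lost in 11 of the 12 (0.0572 to 0.131). UGT71C1 differed by 0.79 ± 0.14, lost without WT replicate 1 or 3 or hni9 replicate 1, all at low nitrogen (0.0503 to 0.0539). CYP71B37 differed by 1.02 ± 0.19, lost in 7 of the 12 (0.0601 to 0.0848), and AT3G02910 by 0.79 ± 0.15, lost in 9 of the 12 (0.0505 to 0.0921).

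Other genes responded in WT and less or not detectably in hni9. AT2G16005, of the MD-2-related lipid recognition family, read 62.0, 44.4 and 67.1 in hni9 at low nitrogen, against 89.9, 78.5 and 180 in hni9 at high nitrogen. In WT it read 152, 209 and 238 at low nitrogen, against 1618, 1596 and 1868 at high nitrogen. The change was -0.77 ± 0.26 in hni9, which did not pass and was -0.45 without replicate 3 at high nitrogen, and -3.01 ± 0.26 in WT, with a difference of 2.23 ± 0.37 (limma, adjusted p = 0.012). The peroxidase AT2G41480 differed by 1.66 ± 0.24. AT2G23910 (2.35 ± 0.42), MSRB6, a methionine sulfoxide reductase (1.83 ± 0.34), AT1G19960 (1.59 ± 0.30), the chalcone isomerase-like gene CHIL (1.56 ± 0.29) and the flavonol glucosyltransferase UGT78D2 (1.56 ± 0.27) had positive differences too. Their calls were lost in 4, 6, 5, 6 and 2 of the 12 fits that left out an array, with adjusted p of 0.0504 to 0.0993.

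Genes known to rise when mitochondria are impaired were called in WT more than in hni9. Of 7 measured genes 3 were higher in hni9, with a median change of 0.49, and 7 were higher in WT, with a median of 2.96. The difference was called for 5 of the 7. Over all probe sets 5.1% were called in hni9, 5.74% in WT and 0.703% for the difference. This list was written at the start but with earlier results of these data known, so its counts are not independent support. AT2G41730 read 1153, 1029 and 1188 in hni9 at low nitrogen, against 742, 416 and 891 in hni9 at high nitrogen. In WT it read 3576, 3899 and 3881 at low nitrogen, against 404, 335 and 387 at high nitrogen. The groups did not overlap in either genotype, and the difference was -2.51 ± 0.28 (limma, adjusted p = 0.00109). Its change in hni9 was 0.77 ± 0.19, or 0.46 without replicate 2 at high nitrogen, and lost its call without replicate 1 or replicate 3 at low nitrogen (0.104 for each).

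AT5G09570 changed by -0.17 ± 0.27 in hni9, which did not pass and was -0.58 without replicate 2 at high nitrogen, and by 2.82 ± 0.27 in WT, a difference of -2.99 ± 0.39. AT2G21640, a marker of mitochondrial oxidative stress, differed by -2.81 ± 0.48, with an adjusted p of 0.0563 without WT replicate 2 at low nitrogen. AT5G51440, a small heat shock protein, rose by 0.48 ± 0.10 in hni9, a call lost without replicate 1 at high (0.0518) or low (0.0587) nitrogen, and differed by -1.03 ± 0.14. The transporter-like gene AT2G04050 of the MATE family changed by 0.45 ± 0.29 in hni9, which did not pass, and differed by -2.51 ± 0.42. NDB2, an alternative NADH dehydrogenase, rose by 0.70 ± 0.13 in hni9 and 0.58 ± 0.13 in WT. Without replicate 1 at low nitrogen the list held 1 call in hni9.

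Outside that list, AT4G12500, a lipid transfer-like protein gene, read 451, 250 and 383 in hni9 at low nitrogen, against 1184, 489 and 831 in hni9 at high nitrogen. In WT it read 2520, 2448 and 2335 at low nitrogen, against 1152, 708 and 692 at high nitrogen, so it was lower at low nitrogen in hni9 and higher in WT. The difference was -2.66 ± 0.39, and the change in hni9, -1.13 ± 0.27, lost its call without replicate 1 or 3 at high nitrogen or replicate 2 or 3 at low nitrogen (adjusted p = 0.0584 to 0.121). AT1G33055, known from roots short of oxygen, differed by -2.34 ± 0.35, and its change in hni9, -0.91 ± 0.25, lost its call without any 1 hni9 array (0.07 to 0.135). AT5G40590 rose in both genotypes and differed by -1.51 ± 0.26, a call lost without WT replicate 1 (0.0557) or 2 (0.0676) at low nitrogen.

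**Figure D5:**
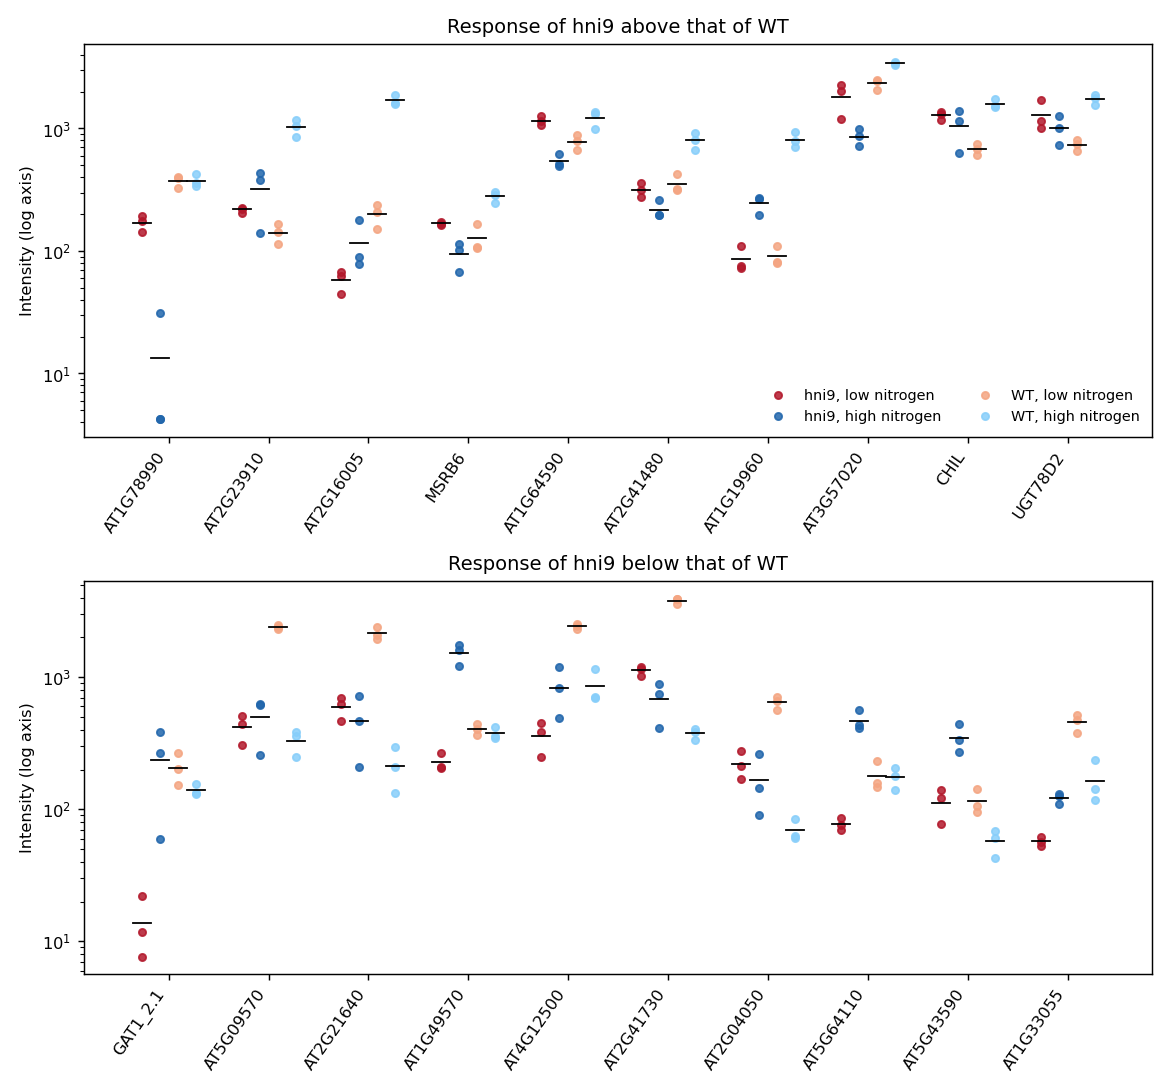
Intensity (log axis) of each array in the 4 groups, as points, with a bar at the group mean, for the 10 genes with the largest positive (top) and the 10 with the largest negative (bottom) difference between the responses. In the bottom panel AT2G41730 lies at 1029 to 1188 in hni9 and 3576 to 3899 in WT at low nitrogen.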

How the data were processed

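The authors deposited a linear intensity per probe set, scaled so that every array has a mean of 500 without its highest and lowest 2%, as read from the values. The sources used here do not name the summarisation software. Changes were computed as log2(value + 16). The model gave each group its own mean over 12 arrays (limma 3.58.1, R 4.3.3, eBayes with an intensity trend), with Benjamini-Hochberg adjustment over 22746 probe sets. The 64 control probe sets were left out. The annotation gave 1 gene to 13513 probe sets, several to 503 and none to 8730, and the brightest probe set stood for a gene. RefSeq's gene table gave names and the order of genes, and no coordinates or sequences are printed.

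Members and lists were chosen with earlier results of these data known. Of 45 gene lists 39 were written at the start and 6, by locus, after values were known, 2 of which replaced small name-matched versions. The patterns for thionins and glutaredoxins were corrected after they had matched unrelated names. The aquaporin list matched 1 gene, AQI, which is no water channel and changed by 0.24 (limma, adjusted p = 0.385). The lists without a named gene number 13. Genes were named by rule: the 15 largest changes per direction past the threshold with 1 gene, groups that do not overlap and a higher mean above the overall median, up to 4 members per list, and the 10 largest per direction kept in both genotypes or differing between them. The kept genes had to meet the same rules of overlap and brightness in both genotypes, while the differing genes were not held to the overlap rule. The fit was tested on simulated data.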

Additional observations from a re-analysis of the deposited data

Results flagged for a closer look

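For 27 named genes the response to low nitrogen differed between hni9 and WT by the test of the difference itself (limma, adjusted over all probe sets), and the values are log2 differences, hni9 minus WT. The difference was negative for GAT1_2.1 (-3.30), AT5G09570 (-2.99), AT2G21640 (-2.81), AT1G49570 (-2.75), AT4G12500 (-2.66), AT2G41730 (-2.51), AT2G04050 (-2.51), AT5G64110 (-2.40), AT5G43590 (-2.35), AT1G33055 (-2.34), AT5G40590 (-1.51), AT5G51440 (-1.03). It was positive for AT1G78990 (2.79), AT2G34810 (2.42), AT2G23910 (2.35), AT2G16005 (2.23), MSRB6 (1.83), AT1G64590 (1.71), AT2G41480 (1.66), AT1G19960 (1.59), AT3G57020 (1.59), CHIL (1.56), UGT78D2 (1.56), AT2G31790 (1.14), CYP71B37 (1.02), AT3G02910 (0.79), UGT71C1 (0.79). Without the intensity trend 20 of the 27 calls were lost, and those that passed were AT1G49570, AT5G64110, AT1G78990, AT1G64590, AT2G41730, AT5G43590 and AT1G33055. With replicates 1 and 2 alone all 27 were lost. Calls lost when 1 array was left out are given beside the genes in the results.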

How the results depend on the processing

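Of the count of 1160 for hni9, of 160 for the difference and of 453 for both genotypes, adding 1 gave 1158, 169 and 461, adding 64 gave 1116, 152 and 444, quantile normalization gave 1117, 161 and 451, and averaging probe sets that share a gene gave 1156, 156 and 451. Without the intensity trend the counts were 647, 21 and 242, and with replicates 1 and 2 alone 362, 1 and 140. With only hni9 arrays in the fit 439 were called in hni9, a fit whose spread rests on 6 arrays. Leaving out 1 array gave 734 to 1071 for hni9, 67 to 254 for the difference and 311 to 462 for both. Centring the arrays gave 1138, 125 and 450, and leaving out the dimmest 40% gave 1292, 224 and 540. With the replicate block the counts were 1294, 234 and 519. The deviations of arrays with the same number correlated at 0.093, 0.307 and 0.295 in hni9 and at 0.114, 0.102 and 0.171 in WT, and every array correlated best with its own number, a hint from the data; since 1 pair was under 0.1 the arrays were taken to share only a number. Of 87 named genes called in hni9, 23 lost the call without the intensity trend, 35 with only hni9 arrays, 40 with replicates 1 and 2 alone and 1 with the block. Of 22 gene lists the count moved by over 1.5 times for 12, 14, 14 and 2 under the same settings. No named gene reversed its sign where called. The causes were not tested, and the number of arrays and the signal over background limit the precision.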

Other observations

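Some of the genes that changed in hni9 stand next to each other on the chromosome. By the order of protein-coding genes in RefSeq's table for this species, 26 of 5878 measured pairs of direct neighbours (0.442%) were both called in hni9. Of these, 17 changed in the same direction and 9 in opposite directions, a share of 65.4% in the same direction, beside 52.7% of all 5878 pairs with the same sign. No test was made, so the counts do not show that called genes stand together more than others. These pairs were looked for after values were seen. The phosphatase gene AT4G32950 lies beside GAMMA-VPE, and they changed by 3.61 and 1.52 on the log2 scale. The peroxidase genes AT5G64110 and AT5G64120 are neighbours that changed by -2.37 and -1.35. The DnaJ-domain gene AT1G56300 changed by -2.34 while its neighbour AT1G56310 changed by 1.31 (limma, adjusted p = 0.0211). Whether probes of one gene also bind transcripts of its neighbour was not tested.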
